A study of Oryza sativa with 30 samples.

Results

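The untreated leaves of rice seedlings labelled atm-1 mutant were compared with those of the wild type labelled ATM, as 3 libraries against 3, chosen by these labels, out of 30 libraries in the series. The series measured leaf RNA of Oryza sativa by RNA sequencing in lines of KU70, ATR and ATM, which act on DNA damage, and of TOP6A3, a topoisomerase VI subunit, with and without gamma irradiation or cold. Libraries of the same ATM and atm-1 lines taken 6 h after 70 Gy of gamma rays (3 a line) and after 24 h at 4 °C (1 a line) are used to read the same genes elsewhere. They also entered the fit that estimates the spread. So did the untreated TOP6A3, top6a3 mutant and atr mutant libraries and the atr library at 70 Gy. The spread thus rests in part on the replicated top6a3 mutant, and groups of a single library add nothing to it. All 6 libraries here came from seedlings grown for 14 days in glass tubes on 0.5-strength Murashige and Skoog medium at 26 °C with 13 h of light and 11 h of dark, and they received neither radiation nor cold; the growth label also names paddy fields. The labels used here do not say what lesion atm-1 carries, which cultivar the ATM line is, how many plants made a library or at what hour leaves were taken. They do not call the replicates separate plants either, and every p-value therefore rests on library-to-library spread that may be technical.

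ATM is a large serine/threonine kinase that is activated by DNA double-strand breaks and phosphorylates proteins of repair and of the cell cycle checkpoint. In plants, much of its transcriptional output after radiation passes through the NAC factor SOG1, as worked out in Arabidopsis thaliana. The comparison asks how leaf transcripts of the mutant differed before any treatment. Levels are given in FPKM, fragments per kilobase of gene scaled to the library's total, and differences are atm-1 minus ATM on the log2(FPKM + 1) scale with their standard error, which understates the change of genes at low FPKM.

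No gene passed the test between the untreated lines. Of 24582 genes tested with limma, 0 (0.0%) had a Benjamini-Hochberg adjusted p under 0.05, the smallest adjusted p was 0.710, and 1330 genes (5.41%) had an unadjusted p under 0.05. Those 1330 held 363 genes (1.48%) higher and 967 genes (3.93%) lower in atm-1, and after quantile normalization the split was 704 higher and 621 lower. That normalization moved the median difference of all genes from -0.05 to 0.06, so directions of small differences below are relative to a background that depends on scaling. Without atm-1 replicate 1 the number at an unadjusted p under 0.05 was 683 of 24432 genes (2.8%), again with 0 called (0.0%), 198 of them (0.81%) higher and 485 (1.99%) lower. The genes below are therefore described by their values, and none is called changed.

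The libraries did not group by line. Reads recovered from the deposited values were 13476935 to 16413209 per library. The library labelled atm-1 replicate 1 had 20514 genes listed at 0 against 13522 to 14135 in the other 5, and 1.53% of its detected genes had 1 to 10 reads against 17.8% to 20.3%. It listed 1338 of 16515 genes at 0 although each was at 1 FPKM or more in the other 5 libraries, where the same count for any other library was 0 to 28. Pearson's r across genes on log2(FPKM + 1) was 0.709 to 0.774 between this library and the other 5. Among those other 5, atm-1 replicate 2 correlated at 0.959 with ATM replicate 1 and atm-1 replicate 3 at 0.961 with ATM replicate 3, above the 0.910 between the 2 atm-1 libraries themselves. ATM replicate 2 also stood apart, at 0.916 and 0.917 with its own group against 0.967 between ATM replicates 1 and 3. The number of genes at an unadjusted p under 0.05 was 1330 with all libraries, 431 without ATM replicate 2, 683 without atm-1 replicate 1, 2789 without atm-1 replicate 2 and 4698 without atm-1 replicate 3.

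**Figure D1:**
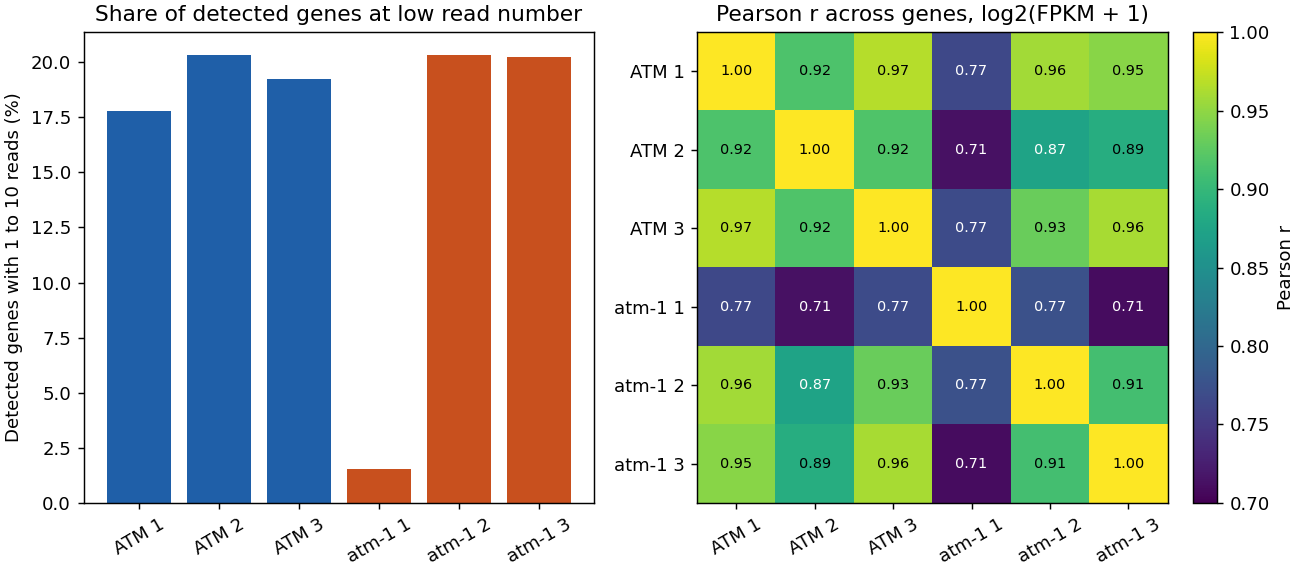
Left, percent of detected genes with 1 to 10 reads in each of the 6 untreated libraries (ATM blue, atm-1 orange). Right, Pearson r across genes of log2(FPKM + 1) for each pair, where atm-1 replicate 1 stands apart from all others, and atm-1 replicates 2 and 3 are closer to ATM replicates 1 and 3 (0.959 and 0.961) than to each other (0.910).

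A second set of correlations took all 38978 listed genes, those at 0 in both libraries included, and so differs from the values above for the same pairs. Over all libraries of the same fit, atm-1 replicate 1 then correlated best with ATM 70 Gy replicate 3 (r = 0.907), and at 0.807 to 0.898 with the other 18. Both had few genes at low read number, at 1.53% and 1.70% of detected genes, and 18028 genes were listed at 0 in both. Values are therefore given by library, and list medians and most differences and counts with and without atm-1 replicate 1. Leaf markers were high in all 6 libraries: the 29 mesophyll markers (light-harvesting and Rubisco small subunit genes) summed to 13556 to 25660 FPKM, against 13.8 to 21.1 FPKM for 11 root markers.

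The transcript of the targeted gene did not separate the lines. ATM (Os01g0106700, chromosome 1, 335809 to 370652, plus strand) was at 6.19, 4.27 and 4.12 FPKM in ATM and 0.85, 4.54 and 5.23 FPKM in atm-1. Only atm-1 replicate 1 lay below the ATM libraries, and the other 2 overlapped them. The difference was -0.53 ± 0.44 (limma adjusted p = 0.720), and 0.02 ± 0.34 without atm-1 replicate 1. As the lesion is not given, this level does not check the label. ATR, the sister kinase that responds to stalled replication, was at 2.47, 1.95 and 3.13 FPKM in ATM and 0, 5.23 and 3.51 FPKM in atm-1. Its groups overlapped only through atm-1 replicate 1. OsKu70, an end-joining protein, was at 3.58, 3.58 and 3.4 FPKM in ATM and 2.41, 3.14 and 4.27 FPKM in atm-1. OsTOP6A3 was at 2.74, 2.23 and 3.48 FPKM in ATM and 2.73, 3.34 and 2.26 FPKM in atm-1. Both of these overlapped between the lines.

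No listed gene of the DNA damage response and repair passed the test. Of 93 listed members 80 passed the filter of 1 FPKM in at least 2 libraries, 24 with higher and 56 with lower values in atm-1. Their median difference was -0.12, against -0.05 over all genes, and 0.06 without atm-1 replicate 1, when 48 were higher and 32 lower, against 44.7% higher and 52.1% lower of all genes. With all libraries 41.3% of all genes were higher and 55.7% lower. RPA1C, a large subunit of the single-strand binding protein RPA, was at 1.02, 0.662 and 1.15 FPKM in ATM and 2.72, 1.7 and 1.73 FPKM in atm-1 and was the member with an unadjusted p under 0.05. Its groups did not overlap, and the difference was 0.64 ± 0.21 (0.49 without atm-1 replicate 1). The recombinase RAD51A1 was at 20.1, 17.8 and 24.8 FPKM in ATM and 41.7, 20.7 and 24.8 FPKM in atm-1, where only atm-1 replicate 1 exceeded the ATM range. The 36 histone genes measured had a median difference of -0.15 and the 125 cell cycle and replication licensing genes one of -0.10. Without atm-1 replicate 1 these medians were -0.08 and -0.06.

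The genes with the largest lower values included a protease inhibitor, a lipoxygenase, an acid phosphatase, and terpene and flavonoid enzymes. Leading genes were defined as genes with a symbol or a description, a mean of 5 FPKM or more in at least 1 line, an unadjusted p under 0.05 and no overlap between the 3 and 3 libraries. There were 199 lower and 122 higher in atm-1, out of 1019 (4.15%) and 596 (2.42%) non-overlapping genes of any level or p. Without atm-1 replicate 1 the same rule gave 203 lower and 86 higher, of which 82 and 36 were shared with the first set, and 1884 (7.71%) and 1579 (6.46%) genes then did not overlap. The values that follow chose these genes and are a description.

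A subtilisin-chymotrypsin inhibitor (Os12g0548401, chromosome 12, 22193325 to 22193831) was at 13.4, 32 and 19.8 FPKM in ATM and listed at 0 in all 3 atm-1 libraries. RBBI2-1 (Os01g0124000, chromosome 1, 1341368 to 1342277), a Bowman-Birk trypsin inhibitor, was at 230.1, 1150.5 and 303 FPKM in ATM and 22.5, 20.4 and 33.7 FPKM in atm-1. The atm-1 libraries were all near the same low level, while ATM replicate 2 was far above the other ATM libraries. The difference was -4.06 ± 1.13, and -3.99 ± 1.32 without atm-1 replicate 1. Its tandem neighbour RBBI2-2 (Os01g0123900) was at 282, 703 and 353 FPKM in ATM and 131, 32.3 and 210.3 FPKM in atm-1, also without overlap. Sequences of the 2 neighbours were not compared, and whether the counting step split reads between them was not tested. The protease inhibitor list does not hold Os12g0548401. Of its 21 measured members RBBI2-1 and RBBI2-2 were the only 2 at an unadjusted p under 0.05 with all 6 libraries, both lower (3.93% of all genes). By sign 13 were higher and 7 lower, with a median of 0.01. Without atm-1 replicate 1, 4 were higher and 15 lower (44.7% and 52.1% of all genes), with a median of -0.09. At that p 3 were then lower (1.99% of all genes). A further member, IAI2, a wound-induced Bowman-Birk inhibitor, was at 101, 121 and 173 FPKM in ATM and 134, 6 and 80.6 FPKM in atm-1.

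Single oxylipin and terpene genes also had low values in atm-1. OsLOX11 (Os12g0559200), a chloroplast lipoxygenase of the kind that starts oxylipin synthesis, was at 125, 404 and 284 FPKM in ATM and 2.79, 47.7 and 35.7 FPKM in atm-1, on average 271 ± 139.9 FPKM in ATM and 28.7 ± 23.2 FPKM in atm-1 (SD, n = 3). No atm-1 library reached the lowest ATM library, and the difference was -3.69 ± 1.12 (-2.53 without atm-1 replicate 1). The neighbouring lipoxygenase Os12g0559934 was at 1.01, 3.7 and 1.76 FPKM in ATM and 0, 0.118 and 0.123 FPKM in atm-1. The list of jasmonate and TIFY genes to which both belong held 22 genes with higher and 22 with lower values of 44 measured. Its median was 0.02, and 3 were lower at an unadjusted p under 0.05 (3.93% of all genes). Leaving out atm-1 replicate 1 gave 18 higher and 26 lower, with a median of -0.07 and 2 lower at that threshold (1.99% of all genes). TPS (Os08g0167800), a beta-sesquiphellandrene synthase that makes a sesquiterpene volatile, was at 35.1, 24.4 and 61.4 FPKM in ATM and 1.15, 4.75 and 1.97 FPKM in atm-1, a difference of -3.54 ± 0.84 (-3.22 without atm-1 replicate 1). Terpene synthase 2 (Os04g0108600) was at 10.3, 20.2 and 4.07 FPKM in ATM and listed at 0 in all 3 atm-1 libraries. No atm-1 library reached an ATM library in either terpene gene. OsVSP2 (Os05g0190500), described as an acid phosphatase, was at 3.8, 109 and 7.73 FPKM in ATM and 0, 0 and 1.67 FPKM in atm-1 and was highest in ATM replicate 2. Its difference was -3.58, and -3.35 without atm-1 replicate 1.

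The list of phenylpropanoid and flavonoid genes held 7 leading genes among its 71 measured of 127 members, against 199 lower (0.81%) and 122 higher (0.496%) of all genes tested. Phenylalanine ammonia-lyase opens the pathway, chalcone synthase makes the first flavonoid skeleton, chalcone isomerase closes it to a flavanone, and in rice CYP93G2 and a C-glucosyltransferase convert the flavanone towards C-glycosyl flavones. CHS* (Os11g0530600, chromosome 11, 19277597 to 19281006), a chalcone synthase, was at 60.6, 181 and 100.5 FPKM in ATM and 14.9, 0.433 and 41.9 FPKM in atm-1. Replicate 2 was the lowest of the atm-1 libraries and the highest of the ATM libraries. The difference was -3.40 ± 1.36, and -3.74 ± 1.57 without atm-1 replicate 1.

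The chalcone isomerase gene CHI (Os12g0115700, chromosome 12, 766441 to 768578) was at 24.1, 45.9 and 38.8 FPKM in ATM and 0, 0.378 and 22.8 FPKM in atm-1, with atm-1 replicate 3 just below the ATM range and the others at or near 0. Its copy CHI on chromosome 11 (Os11g0116300) was at 57.9, 96.6 and 89.3 FPKM in ATM and 11.5, 11.3 and 58.2 FPKM in atm-1, where replicate 3 overlapped ATM. These copies lie in the duplicated ends of chromosomes 11 and 12, so reads may be shared between them. The more abundant isomerase gh1 (Os03g0819600) was at 239, 631 and 402 FPKM in ATM and 244, 95.7 and 256 FPKM in atm-1 and overlapped, with a difference of -1.11 ± 0.48 (-1.32 without atm-1 replicate 1). CYP93G2 (Os06g0102100) was at 23.1, 37.8 and 28.8 FPKM in ATM and 0, 1.82 and 16.2 FPKM in atm-1, a difference of -3.05 ± 0.96 (-2.12 without atm-1 replicate 1). The C-glucosyltransferase UGT (Os06g0289900) was at 23.9, 37.7 and 84.9 FPKM in ATM and 0, 0.117 and 29.4 FPKM in atm-1. Its relative OsCGT (Os06g0288300) was at 16.1, 16.1 and 25.1 FPKM in ATM and 4.45, 11.5 and 19.2 FPKM in atm-1. In all these genes atm-1 replicate 3 was the highest atm-1 library, as for chalcone synthase.

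Upstream, OsPAL07 (Os04g0518400) was at 13, 20.9 and 11 FPKM in ATM and 6.04, 3.23 and 3.8 FPKM in atm-1 without overlap, a difference of -1.56 ± 0.68 (-1.78 without atm-1 replicate 1). The ligase gene 4CL2, whose product activates coumarate, was at 6.51, 11.2 and 9.39 FPKM in ATM and 3.07, 0.272 and 6.12 FPKM in atm-1, a difference of -1.57 ± 0.54 (-1.71 without atm-1 replicate 1). The cinnamoyl-CoA reductase OsCCR6, an enzyme of the lignin branch, was at 10.7, 38.2 and 8.18 FPKM in ATM and 3.75, 6.82 and 4.33 FPKM in atm-1, -1.47 ± 0.58 (-1.32 without atm-1 replicate 1). In the other direction CADL (Os01g0528800), also described as a cinnamoyl-CoA reductase, was at 97.1, 70.9 and 84.9 FPKM in ATM and 194, 102 and 92.2 FPKM in atm-1 and overlapped. Of the 71 that passed the filter 14 were lower and 0 higher at an unadjusted p under 0.05 (3.93% and 1.48% of all genes). By sign 50 were lower and 21 higher, and the median was -0.34 against -0.05 over all genes. The median depended on scaling and filter, at -0.16 with a pseudocount of 5, -0.20 after quantile normalization and -0.060 with no filter on low values. Without atm-1 replicate 1 the numbers were 16, 0, 55 and 16, with a median of -0.31, against 485 genes (1.99%) lower at an unadjusted p under 0.05 over all genes. The genes added to this account beyond the 2 smallest p-values of the list were chosen after their values were seen.

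**Figure D2:**
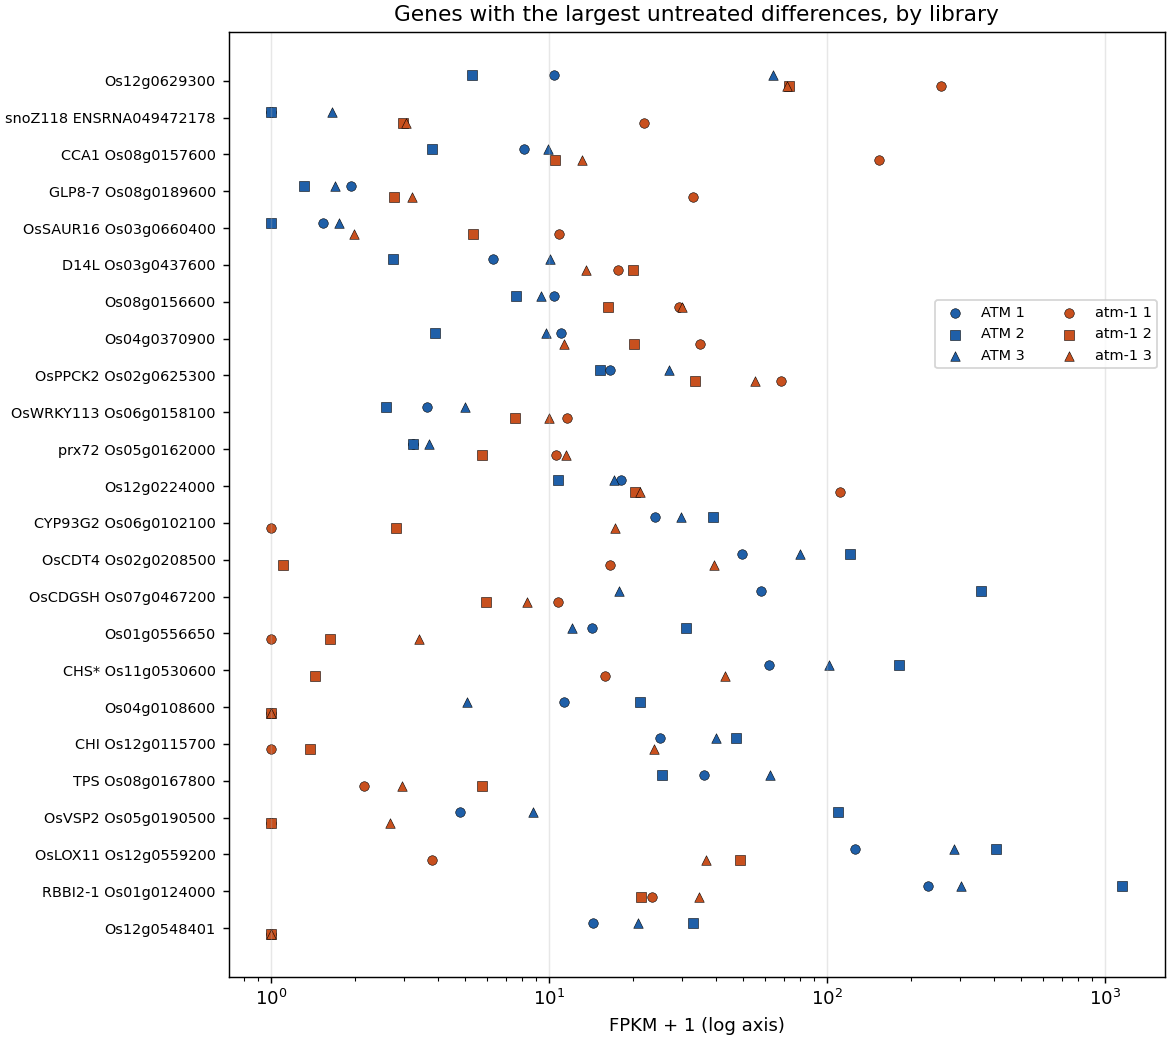
FPKM + 1 on a log axis in each untreated library for the 12 genes with the largest higher and the 12 with the largest lower values in atm-1 among the leading genes (ATM blue, atm-1 orange; circle, square and triangle for replicates 1, 2 and 3). The groups do not overlap because the genes were chosen so, and atm-1 replicate 1 is far to the right for CCA1 and GLP8-7.

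Further leading genes with lower values had other functions. A nitrate and peptide transporter family member (NRT1/PTR 6.2, Os01g0556650) was at 13.2, 30.1 and 11.1 FPKM in ATM and 0, 0.626 and 2.4 FPKM in atm-1, a difference of -3.31 ± 0.67 (-2.89 without atm-1 replicate 1). OsCDGSH (Os07g0467200), an iron-sulfur NEET protein, was at 56.7, 358 and 16.9 FPKM in ATM and 9.79, 4.92 and 7.32 FPKM in atm-1. OsCDT4 (Os02g0208500), for which the files give no description, was at 48.5, 120.1 and 78.7 FPKM in ATM and 15.6, 0.103 and 38.1 FPKM in atm-1. Both had their highest value in ATM replicate 2, and OsCDT4 its lowest in atm-1 replicate 2. OsWRKY64 (Os12g0116700), a WRKY transcription factor gene, was at 12.4, 12.1 and 10.5 FPKM in ATM and 0, 1.62 and 0.726 FPKM in atm-1. OsWRKY50 (Os11g0117600) was at 5.12, 22.4 and 5.19 FPKM in ATM and 0, 1.19 and 0 FPKM in atm-1. They too lie in the duplicated ends of chromosomes 11 and 12. The WRKY list as a whole had a median of -0.03, with 38 higher and 49 lower of 88. Without atm-1 replicate 1 the median was -0.02, with 40 higher and 46 lower of 87.

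Leading genes with higher values in atm-1 were fewer, at 122 against 199, and had smaller differences, with medians of 0.74 and -1.48. The number depends on scaling, as quantile normalization gave 704 higher and 621 lower genes at an unadjusted p under 0.05. The gene with the smallest unadjusted p was a putative glycerol-3-phosphate transporter (Os08g0156600, chromosome 8, 3281105 to 3284469) at 9.39, 6.59 and 8.35 FPKM in ATM and 28.3, 15.4 and 29 FPKM in atm-1. All 3 atm-1 libraries exceeded all ATM libraries and none stood apart, with means of 8.11 ± 1.41 FPKM in ATM and 24.2 ± 7.67 FPKM in atm-1 (SD, n = 3). The difference was 1.43 ± 0.23 (limma adjusted p = 0.710), and 1.29 ± 0.24 without atm-1 replicate 1. Without atm-1 replicate 2 it was 1.71, and the gene was then called (limma adjusted p = 0.0215, the lowest of its alternatives, which reached 1). At 70 Gy the same gene was at 9.14, 11.3 and 9.58 FPKM in ATM and 8.75, 8.56 and 9.83 FPKM in atm-1. Those groups overlapped, with a difference of -0.13, and the 70 Gy difference minus the untreated one was -1.56 ± 0.33 (limma adjusted p = 0.148).

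A thaumatin-like protein gene (Os12g0629300), of a family of pathogenesis-related proteins, had the largest difference of the leading genes with higher values, 2.86 ± 0.91. It was at 9.45, 4.29 and 63.1 FPKM in ATM and 257, 72.3 and 70.8 FPKM in atm-1, so ATM replicate 3 nearly reached the lower pair of atm-1 libraries. OsPPCK2 (Os02g0625300), the kinase that activates phosphoenolpyruvate carboxylase, was at 15.6, 14.3 and 25.9 FPKM in ATM and 67.1, 32.5 and 54.3 FPKM in atm-1, 1.40 ± 0.34. D14L (Os03g0437600), the karrikin receptor, was at 5.27, 1.75 and 9.04 FPKM in ATM and 16.7, 19 and 12.5 FPKM in atm-1, 1.60 ± 0.60. These did not rest on atm-1 replicate 1 alone: without it the differences were 2.25, 1.18 and 1.56.

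Receptor, auxin and defence genes were also among those with higher values. A wall-associated kinase-like gene (Os04g0370900) was at 10, 2.89 and 8.78 FPKM in ATM and 33.8, 19.2 and 10.3 FPKM in atm-1. OsWRKY113 (Os06g0158100) was at 2.64, 1.59 and 3.98 FPKM in ATM and 10.6, 6.52 and 8.96 FPKM in atm-1. The groups did not overlap in this gene or in the next. The peroxidase prx72 (Os05g0162000) was at 2.25, 2.24 and 2.69 FPKM in ATM and 9.57, 4.74 and 10.5 FPKM in atm-1. The small auxin-induced gene OsSAUR16 (Os03g0660400) was at 0.541, 0 and 0.751 FPKM in ATM and 9.83, 4.33 and 0.984 FPKM in atm-1. A diacylglycerol kinase gene (Os12g0224000) was at 17.2, 9.79 and 16.1 FPKM in ATM and 110.1, 19.3 and 20.3 FPKM in atm-1, and only atm-1 replicate 1 was well above ATM. Of the 89 pathogenesis-related genes measured, 7 were higher and 6 lower at an unadjusted p under 0.05 (1.48% and 3.93% of all genes). Their median was -0.11. Those counts were 3 and 4 (0.81% and 1.99% of all genes), and the median -0.15, when atm-1 replicate 1 was left out. GLP8-7, a germin-like protein gene, was at 0.943, 0.317 and 0.702 FPKM in ATM and 31.9, 1.76 and 2.21 FPKM in atm-1. The chitinase gene Oschib1 was at 54.8, 63.2 and 49.9 FPKM in ATM and 500.5, 107 and 65.2 FPKM in atm-1. In both, atm-1 replicate 1 was far above the rest.

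The morning clock gene CCA1 and several dehydration genes were at their highest in atm-1 replicate 1. CCA1 (Os08g0157600), which encodes an LHY-type MYB repressor of the circadian clock that peaks around dawn, was at 7.11, 2.78 and 8.9 FPKM in ATM and 153, 9.52 and 12.2 FPKM in atm-1. Its difference was 2.04 ± 0.94, and 0.81 ± 0.71 without that library. The related OsMyb1R (Os02g0685200) was at 10.8, 3.96 and 10.6 FPKM in ATM and 123, 14.8 and 7.94 FPKM in atm-1. Os06g0728700, described as REVEILLE 2, was at 12.5, 4.47 and 12.4 FPKM in ATM and 94.4, 11.9 and 8.38 FPKM in atm-1. In both, only atm-1 replicate 1 was far from the others. The evening gene GI was at 587, 584 and 529 FPKM in ATM and 249, 485 and 576 FPKM in atm-1, with its lowest value in the same library. LHY (Os04g0583900), described as REVEILLE 1, was at 42.9, 25.9 and 43.6 FPKM in ATM and 74.8, 54.8 and 51.5 FPKM in atm-1, a difference of 0.69 ± 0.36 (0.53 without atm-1 replicate 1). OsPRR73, a pseudo-response regulator of the clock, was at 33.8, 33.2 and 33.2 FPKM in ATM and 24.1, 28.4 and 30.2 FPKM in atm-1, a difference of -0.27 ± 0.14 (-0.18 without atm-1 replicate 1). Neither gene overlapped between the lines, with or without that library. Of the 20 clock genes measured 12 were higher and 8 lower, and the median moved from 0.18 to 0.01 without it. CCA1 in the irradiated ATM libraries was at 5.94, 12.1 and 58.6 FPKM, so the highest value was in ATM 70 Gy replicate 3, the other library with few genes at low read number. Whether library preparation or the hour of harvest has a part in these values was not tested.

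OsLEA3-1 (Os05g0542500), a late embryogenesis abundant protein gene induced by water loss, was at 313, 393 and 391 FPKM in ATM and 1687, 65.4 and 1.64 FPKM in atm-1. The atm-1 libraries thus lay on both sides of a tight ATM group, and the difference went from -2.45 ± 1.94 to -4.78 ± 1.64 when replicate 1 was left out. OsLEA1 was at 61.7, 49.7 and 111 FPKM in ATM and 128, 6.82 and 0.509 FPKM in atm-1. The late embryogenesis abundant gene OsLEA25 was at 76.1, 28.9 and 124 FPKM in ATM and 329.9, 9.07 and 0.338 FPKM in atm-1. OsLEA16 was at 31.1, 47.4 and 58.1 FPKM in ATM and 119, 5.52 and 0 FPKM in atm-1. In all 4 the order was replicate 1 above ATM, replicate 2 below and replicate 3 lowest, so the atm-1 libraries did not share a level. RAB16B, an ABA-induced dehydrin gene, was at 16, 3.57 and 31.9 FPKM in ATM and 113, 1.58 and 0.414 FPKM in atm-1. LIP9, a dehydrin gene of drought and cold, was at 249, 198 and 262 FPKM in ATM and 2024, 152 and 73.1 FPKM in atm-1. Both followed the same order by library. The 130 ABA and drought genes together had a median of -0.01, and -0.02 without replicate 1. At 70 Gy OsLEA3-1 was at 38, 7.22 and 720.1 FPKM in ATM, again highest in replicate 3.

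Leading genes with higher values chosen without atm-1 replicate 1 included OsHRZ2 and its neighbour. OsHRZ2 (Os05g0551000), an iron-binding ubiquitin ligase that represses iron uptake in rice, was at 78.9, 10.8 and 72.4 FPKM in ATM and 24.3, 133 and 159.5 FPKM in atm-1. The neighbour, Os05g0551100, was at 4.76, 0.556 and 4.63 FPKM in ATM and 1.58, 11.7 and 12.1 FPKM in atm-1. Replicates 2 and 3 of atm-1 exceeded ATM, replicate 1 lay within its range, and ATM replicate 2 was the lowest ATM library for both. OsERF#079 (Os02g0594300) was at 10.6, 1.05 and 22.2 FPKM in ATM and 3.3, 34.1 and 27.5 FPKM in atm-1. Os06g0587900, a gene with a leucine-rich repeat domain, was at 1.93, 1.15 and 3.43 FPKM in ATM and 0, 11.8 and 9.45 FPKM in atm-1.

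Genes of photosynthesis had lower values in atm-1, and the size of that difference depended on replicate 1. Of the 20 light-harvesting genes measured 17 were lower, of 34 photosystem and electron transport genes 26, of 20 in the Calvin cycle 18 and of 26 in chlorophyll synthesis 24. Over all genes 55.7% were lower. Without atm-1 replicate 1 the counts were 14 of 20, 24 of 33, 16 of 20 and 18 of 26, against 52.1% of all genes. Medians were -0.53, -0.49, -0.65 and -0.64 in that order, against -0.05 over all genes, and -0.22, -0.32, -0.12 and -0.16 without atm-1 replicate 1. The 44 nuclear genes of the chloroplast ribosome moved most, from -0.92 with 42 lower to -0.13 with 34 lower. None was called in any of the lists. At an unadjusted p under 0.05, 2, 5, 2, 2 and 2 members of these 5 lists were lower, against 967 genes (3.93%) over all genes. At that p 0, 1, 0, 1 and 0 were higher (1.48% of all genes). Without atm-1 replicate 1, 1, 1, 2, 0 and 0 were lower (1.99% of all genes) and 0, 0, 0, 1 and 0 higher (0.81%).

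By library, the chloroplast ribosome genes of atm-1 lay at a median of -2.39, -0.23 and -0.05 relative to the ATM mean, and the Calvin cycle genes at -1.62, -0.45 and 0.19. Light-harvesting genes lay at -0.94, -0.61 and 0.00, so replicate 3 was level with ATM while replicates 1 and 2 were below it. The 29 mesophyll markers are light-harvesting and Rubisco small subunit genes, so their sum is not a measure apart from these lists. It was 20025, 25660 and 23551 FPKM in ATM and 14014, 13556 and 22049 FPKM in atm-1, with 9 to 11 markers at 0 in each library. In bulk leaf RNA, fewer cells of a type and less RNA per cell cannot be told apart.

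**Figure D3:**
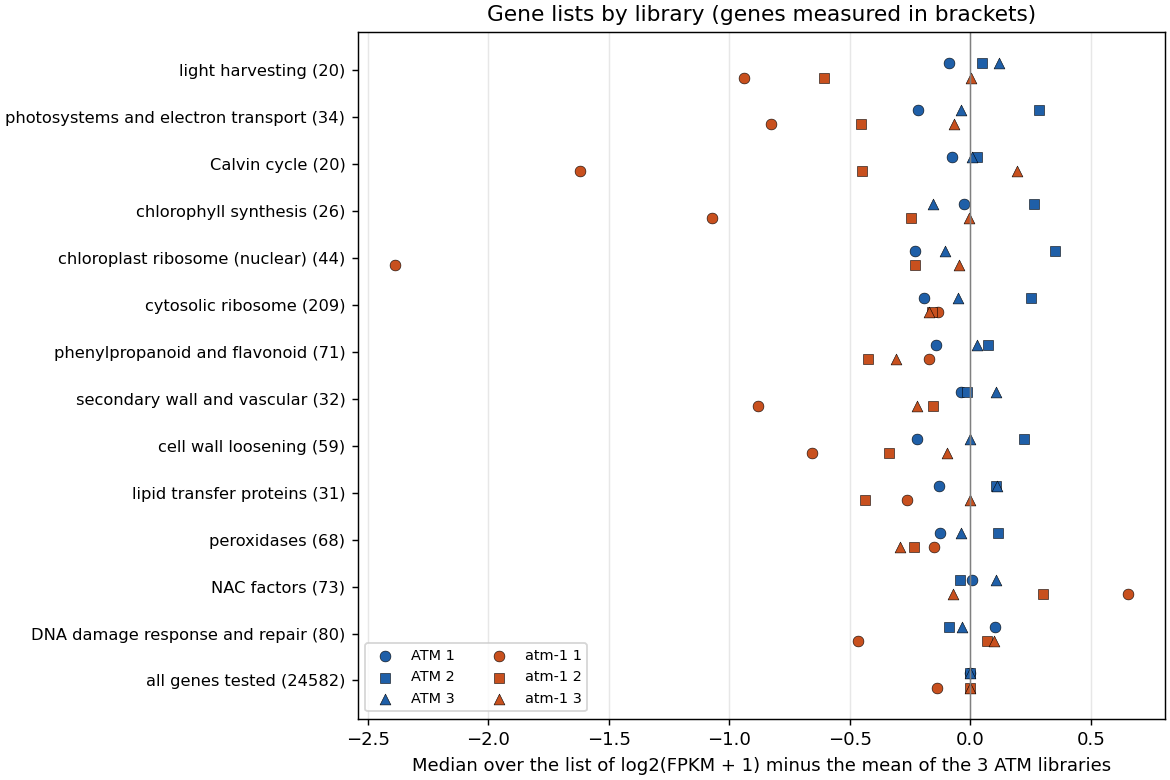
Median over each gene list of log2(FPKM + 1) minus the mean of the 3 ATM libraries, for each of the 6 untreated libraries (symbols as for the leading genes). For the chloroplast ribosome, atm-1 replicate 1 lies at -2.39 while replicates 2 and 3 lie at -0.23 and -0.05. The phenylpropanoid list has all 3 atm-1 libraries below the ATM libraries, but atm-1 replicate 1 (-0.17) only just below ATM replicate 1 (-0.14). The median of all genes in atm-1 replicate 1 is also -0.14.

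Single genes showed the same order. Lhca6, a photosystem I antenna gene, was at 201, 276 and 227 FPKM in ATM and 12.1, 187 and 215 FPKM in atm-1, a difference of -1.53 ± 0.83 that was -0.21 ± 0.40 without replicate 1. The Rubisco accumulation factor gene Os10g0445600 was at 186, 246 and 215 FPKM in ATM and 19.7, 181 and 199 FPKM in atm-1. The gene rpl12-2, for a chloroplast ribosomal protein, was at 936, 1790.3 and 1195 FPKM in ATM and 133, 935 and 1077 FPKM in atm-1. In each, replicate 1 was several-fold below all other libraries and replicates 2 and 3 were close to ATM.

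A few members did not depend on that library. RBCS (Os12g0274700, chromosome 12, 10080505 to 10081588), a Rubisco small subunit gene, was at 1152, 2938 and 1296 FPKM in ATM and 914, 324 and 737 FPKM in atm-1, lowest in atm-1 replicate 2, with a difference of -1.44 ± 0.53, and -1.74 ± 0.57 without replicate 1. PSBW, a photosystem II reaction centre subunit gene, was at 966, 3139 and 1006 FPKM in ATM and 307, 819 and 625 FPKM in atm-1, -1.42 ± 0.54 (-1.02 without atm-1 replicate 1). The chlorophyll a-b binding gene cab (Os08g0435900) was at 1165, 1329 and 976 FPKM in ATM and 501, 603 and 845 FPKM in atm-1, -0.85 ± 0.33 (-0.68 without atm-1 replicate 1). CAO, the enzyme that makes chlorophyll b, went the other way, at 97.3, 32.7 and 104 FPKM in ATM and 126, 107 and 161 FPKM in atm-1, 0.89 ± 0.36 (0.91 without atm-1 replicate 1), and no atm-1 library overlapped ATM. Genes of the cytosolic ribosome had small differences mostly of one sign: 157 of 209 had lower values, against 55.7% of all genes, with a median of -0.18. Without replicate 1, 192 were lower and 16 higher, against 52.1% lower over all genes, with a median of -0.19. By library the medians were -0.14, -0.16 and -0.17 in atm-1 and -0.19, 0.25 and -0.05 in ATM, so the lowest was an ATM library.

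**Figure D4:**
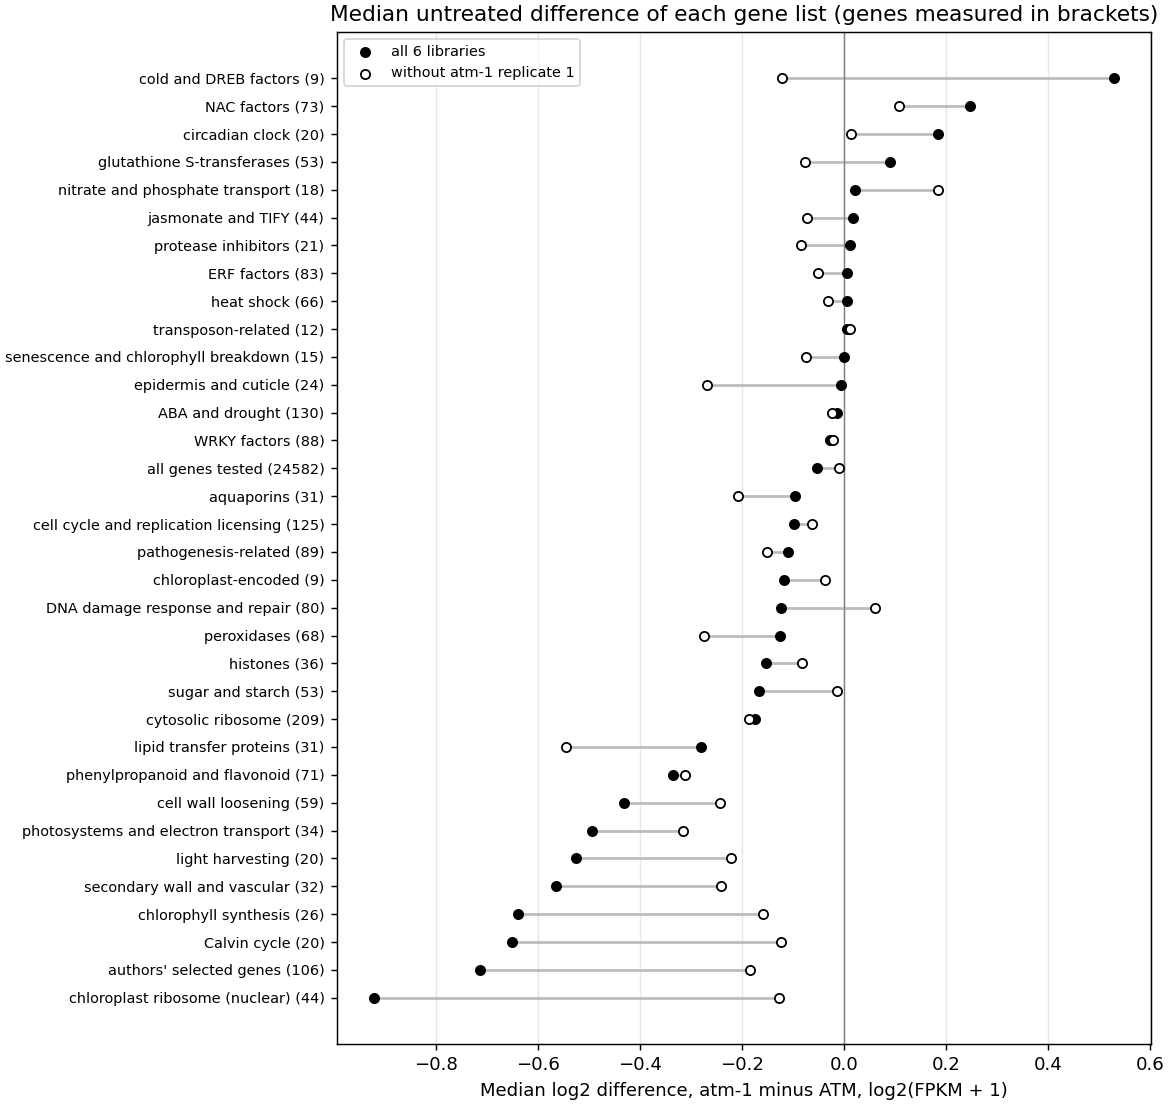
Median untreated difference, atm-1 minus ATM on log2(FPKM + 1), of each gene list and of all genes tested, with all 6 libraries (filled) and without atm-1 replicate 1 (open). The chloroplast lists move towards 0 when that library is left out, the phenylpropanoid list lies at -0.34 and -0.31, and the lipid transfer list moves from -0.28 to -0.55.

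Most listed cell wall genes had lower values in atm-1. Of 32 secondary wall genes measured 25 had lower values, against 55.7% of all genes, 7 of them at an unadjusted p under 0.05 (3.93% of all genes), and the median was -0.57. With atm-1 replicate 1 left out, 20 had lower values (52.1% of all genes), 3 of them at that p (1.99% of all genes). The median was then -0.24. OsCesA4 (Os01g0750300), a cellulose synthase of the secondary wall, was at 3.73, 10.8 and 10.7 FPKM in ATM and 0.689, 0.28 and 3.82 FPKM in atm-1. The laccase gene Oslacc, of a family that polymerises lignin, was at 0.672, 5.19 and 7.03 FPKM in ATM and 0, 0 and 0.594 FPKM in atm-1. OsCesA1, a primary wall synthase on the same list, was at 40.5, 95.5 and 82.3 FPKM in ATM and 6.71, 10.4 and 76.6 FPKM in atm-1. Replicate 3 of atm-1 lay within the ATM range for OsCesA1 and just inside it for OsCesA4, while Oslacc did not overlap. Expansin OsEXP2, a wall-loosening protein gene, was at 10.2, 32.5 and 5.04 FPKM in ATM and 0, 1.19 and 3.77 FPKM in atm-1. OsXTH17, a xyloglucan remodelling enzyme gene, was at 49.2, 1243 and 92.7 FPKM in ATM and 40.6, 15.1 and 61.1 FPKM in atm-1, where ATM replicate 2 alone was high. The 59 wall-loosening genes measured had a median of -0.43, with 48 lower and 3 of these at an unadjusted p under 0.05 (3.93% of all genes). Without atm-1 replicate 1 the median was -0.24, with 45 lower and 0 at that p (1.99% of all genes).

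The vascular markers summed to 157, 496 and 157 FPKM in ATM and 108, 222 and 67.0 FPKM in atm-1, with 17 to 21 and 23 to 29 of the 37 at 0. They include cellulose synthases and laccases, as does the secondary wall list, so their sum is not a measure apart from it. The sum of atm-1 replicate 2 lay above those of ATM replicates 1 and 3. The markers of dividing cells summed to 626, 1344 and 773 FPKM in ATM and 790.0, 849 and 651 FPKM in atm-1, with 10 to 12 and 11 to 22 of the 39 at 0. Epidermal markers summed to 141 to 252 FPKM in ATM and 162 to 226 FPKM in atm-1, with 15 to 20 and 17 to 23 of the 41 at 0. Their part in the cell wall values was not tested.

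Lipid transfer proteins, which carry lipids to the cuticle, had a median of -0.28 over 31 genes, and -0.55 without atm-1 replicate 1. OsLTP2.12 was at 27.8, 89 and 35.3 FPKM in ATM and 28, 11.7 and 13.8 FPKM in atm-1. OsLTP1.19 was at 83, 410.1 and 229 FPKM in ATM and 36.3, 34.4 and 166 FPKM in atm-1. Both overlapped. OsLTP1.19 lies in the duplicated end of chromosome 12, so its reads may be shared with a copy. Class III peroxidases, secreted enzymes of the wall, had 12 lower and 3 higher of 68 at an unadjusted p under 0.05 (3.93% and 1.48% of all genes), and a median of -0.13. These counts were 7 and 1 without atm-1 replicate 1 (1.99% and 0.81% of all genes), and the median was -0.27. prx75 (Os05g0499400) was at 11.3, 21.2 and 18.2 FPKM in ATM and 1.66, 2.1 and 10 FPKM in atm-1. The peroxidase prx130 (Os11g0112400) was at 0.766, 2.19 and 3.76 FPKM in ATM and 0, 0.171 and 0.299 FPKM in atm-1. Neither overlapped. Glutathione S-transferases, which conjugate toxic compounds, had 6 lower and 1 higher of 53 at an unadjusted p under 0.05 (3.93% and 1.48% of all genes). By sign 31 were higher and 21 lower, with a median of 0.09. Without atm-1 replicate 1 the counts by sign were 18 and 33, and the median was -0.08. At that p 6 of 52 were then lower and 0 higher (1.99% and 0.81% of all genes). A pair of neighbours on chromosome 10 had no overlap, OsGSTU14 at 2.57, 6.58 and 4.43 FPKM in ATM and 0, 0.183 and 1.4 FPKM in atm-1. The other, OsGSTU18, was at 13.4, 41.9 and 31.3 FPKM in ATM and 5.52, 2.22 and 13 FPKM in atm-1.

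The lists of transcription factors and stress proteins did not share a direction, and most NAC genes had higher values. The 73 NAC genes had a median of 0.25 with 50 higher, against 41.3% higher of all genes. Without atm-1 replicate 1 the median was 0.11 with 44 NAC genes higher, against 44.7% of all genes. Among them ONAC037 (Os08g0157900), which lies near CCA1 on chromosome 8, was at 69.6, 48 and 69.5 FPKM in ATM and 170.1, 81.6 and 74.8 FPKM in atm-1. OsNAC8 was at 68.3, 34.7 and 67.4 FPKM in ATM and 142, 70.9 and 75.1 FPKM in atm-1. Neither overlapped, and atm-1 replicate 1 was the highest for both. The 83 ERF genes had a median of 0.01 and the 66 heat shock genes one of 0.01. At an unadjusted p under 0.05, 2 heat shock genes were higher and 4 lower (1.48% and 3.93% of all genes). Without atm-1 replicate 1 the 2 medians were -0.05 and -0.03. Of 65 heat shock genes 0 were then higher and 5 lower at that p (0.81% and 1.99% of all genes). The median of the 9 cold and DREB genes moved from 0.53 to -0.12 without atm-1 replicate 1. DREB2A, a dehydration-response factor gene, was at 4.52, 3.64 and 5.38 FPKM in ATM and 31.3, 4.93 and 2.31 FPKM in atm-1. HSP70 (Os03g0277300) was at 9.37, 6.91 and 9.37 FPKM in ATM and 12.4, 0.779 and 0 FPKM in atm-1, with replicates 2 and 3 of atm-1 near 0. Medians of the other lists lay between -0.17 and 0.02, in sugar and starch, aquaporins, epidermis and cuticle, senescence, transposon-related, chloroplast-encoded, and nitrate and phosphate transport genes. With atm-1 replicate 1 left out, they lay between -0.27, in epidermis and cuticle genes, and 0.18, in nitrate and phosphate transport genes.

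The leading genes were then read in the 3 ATM and 3 atm-1 libraries at 70 Gy, which entered their choice only through the shared estimate of spread behind the unadjusted p. Of the 199 genes lower in untreated atm-1, 41 were also lower there (20.6%), against 40.3% of all genes, and 0 were called in either direction. Their median difference was -1.48 untreated and 0.56 at 70 Gy. Of the 122 genes higher in untreated atm-1, 54 were also higher (44.3%), against 55.3% of all genes, with medians of 0.74 and -0.02. The shares with the untreated direction were thus below those of all genes in both sets, and no test was run on them.

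ATM 70 Gy replicate 3 bears on this, as it had few genes at low read number. Without it and atm-1 control replicate 1 in the fit, 62 of the 199 (31.2%) were lower, against 45.7% of all genes, and 63 of the 122 (51.6%) were higher, against 49.8%. With leading genes chosen without atm-1 control replicate 1, 88 of 203 (43.3%) were lower again and 51 of 86 (59.3%) higher again in the fit with all libraries, against 40.3% and 55.3% of all genes. When ATM 70 Gy replicate 3 was left out as well, these became 84 of 203 (41.4%), below the 45.7% of all genes, and 56 of 86 (65.1%), above 49.8%. TPS gives an example: at 70 Gy it was at 4.5, 5.11 and 1.37 FPKM in ATM and 57.7, 8.67 and 99.7 FPKM in atm-1, the opposite order to untreated leaves. Chalcone synthase CHS* was at 104, 15.7 and 0.914 FPKM in ATM and 102, 166 and 34.6 FPKM in atm-1 at that dose. RBBI2-1 was at 157, 168 and 14.2 FPKM in ATM and 1466, 87.9 and 194 FPKM in atm-1. Both had wide and overlapping groups.

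**Figure D5:**
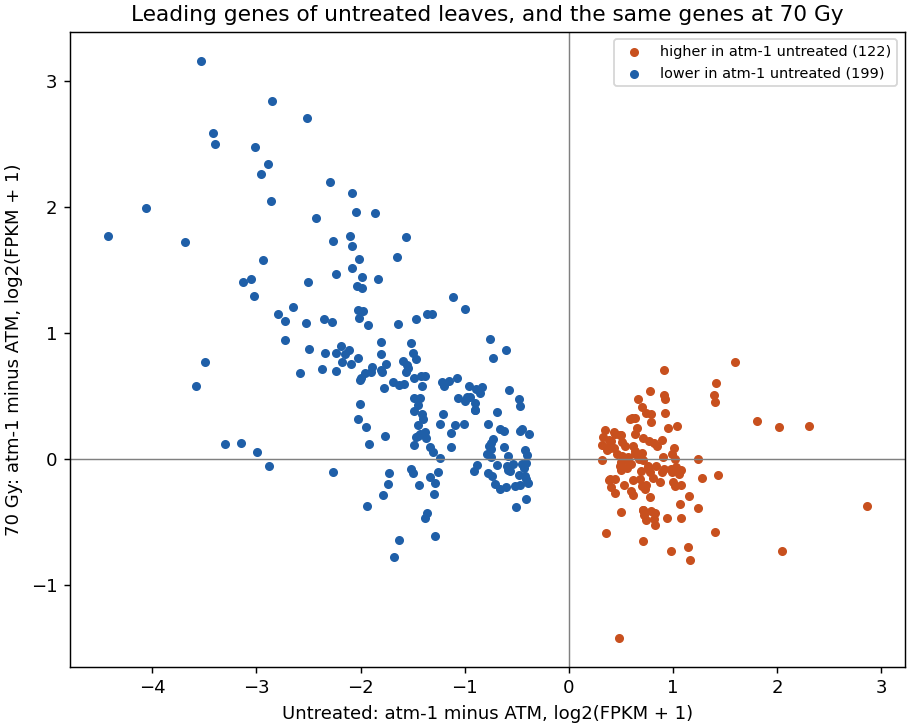
Difference atm-1 minus ATM on log2(FPKM + 1) of the 321 leading genes in untreated leaves (horizontal, the values that chose them) and in other libraries at 70 Gy (vertical). Most genes lower in untreated atm-1 lie above 0 at 70 Gy, and only 41 of 199 lie below it.

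Of the leading genes, 1 was called at 70 Gy. OsDi19-5 (Os01g0971100), a drought-induced zinc finger protein gene, was at 90.9, 66.7 and 99.7 FPKM in ATM and 103, 112 and 145 FPKM in atm-1 untreated, with no overlap and a difference of 0.49 ± 0.19 (0.59 without atm-1 replicate 1). At 70 Gy it was at 188, 237 and 203 FPKM in ATM and 76.1, 76.7 and 78.8 FPKM in atm-1, a difference of -1.42 (limma adjusted p = 0.00376). The irradiated comparison had 81 called genes in all (0.33%), all lower in atm-1 and 0 higher (0.0%), so the same fit with the same number of libraries made calls there and none in untreated leaves. The irradiated count was 180 without atm-1 control replicate 1 and 203 when ATM 70 Gy replicate 3 was left out too. The test of line and dose together called 41 genes (0.167%), OsDi19-5 among them. Over the alternatives that count ran from 9, with a filter of 5 FPKM in 3 libraries, to 1252 with library weights, and the irradiated count from 26 to 3150 under the same settings. The joint count was 10 with voom, 14 with a pseudocount of 0.1, 24 with ATM replicate 2 of the untreated leaves left out, and 98 with both libraries poor in low-read genes left out. In the single cold libraries, 77 of the 199 were lower in atm-1 and 119 higher, and 56 of the 122 were higher and 65 lower, with no replicate check. Over all genes tested 50% were higher and 41.1% lower there.

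A selection of 106 genes in the authors' deposited table was also read in the untreated libraries. Of its genes 15 are among the 24 listed for light harvesting and 29 among the 47 listed for photosystems. It comes from the same series, and its rule of choice was not used here, so it is not treated as independent evidence of a direction. All 106 passed the filter, 91 had lower values in atm-1, and the median was -0.71, or -0.18 with 82 lower without replicate 1. By library the median lay at -1.59, -0.46 and 0.00 for atm-1 replicates 1, 2 and 3 relative to the ATM mean. GUN4 (Os11g0267000), a chlorophyll synthesis regulator in the selection, was at 58.8, 88 and 53.4 FPKM in ATM and 6.13, 26.9 and 60.6 FPKM in atm-1, which follows that order.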

How the data were processed

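Total leaf RNA was extracted with a Huayueyang kit and made into strand-specific NEBNext Ultra Directional libraries, per the labels' protocols. The deposited tables give FPKM per gene and library, per the file headers; gene length, another deposited column (unit: other), was used only to recover reads, and the group means in the authors' deposited table were read as a signal. Aligner, counter and genome build, and whether counting used strand, were each not given in the sources used here, so overlapping and antisense genes cannot be told apart. Multiplying FPKM by length gave whole reads for 100% of values within 0.01 read, and 13476935 to 16413209 reads per untreated library. Each table lists 38978 genes, and 0 columns of samples were left unmapped.

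The test was limma's moderated test on log2(FPKM + 1) over 20 libraries in 10 groups (10 residual degrees of freedom), keeping genes that reached 1 FPKM in 2 or more libraries, with Benjamini-Hochberg adjustment over all genes tested. The steps were run on simulated data in which all libraries had the same spread and none was poor in low-read genes. That run cannot show how the steps handle libraries that stand apart, such as atm-1 replicate 1. Named genes were the 12 leading genes each way, the 6 each way without atm-1 replicate 1, the 2 smallest p-values of each list and the genes of the study's lines; further members shown were chosen after their values were seen. The 33 gene lists were built from gene descriptions (47 members added and 91 dropped on reading them). Members and lists were chosen with earlier results of these data known. Tools were R 4.3.3 with limma 3.58.1 and the data.table package 1.17.8, and Python 3.11.15 with pandas 2.3.3, numpy 2.4.6 and matplotlib 3.10.9. The 18 alternatives are given in the closing section.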

Additional observations from a re-analysis of the deposited data

Results flagged for a closer look

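The difference between the lines depended on irradiation for 2 of the genes looked at here, by the test of line and 70 Gy together in limma. OsMSH5 (Os05g0498300), a MutS homologue known for its part in meiotic crossovers, was at 2.04, 1.53 and 1.75 FPKM in untreated ATM and 0, 0.818 and 1.51 FPKM in untreated atm-1. At 70 Gy it was at 34.5, 26.8 and 12.4 FPKM in ATM and 0.744, 0.649 and 0.757 FPKM in atm-1, a difference of -3.79 (limma adjusted p = 0.000411). The 70 Gy difference minus the untreated difference was -3.05 (limma adjusted p = 0.0497), and all 3 irradiated ATM libraries were above all irradiated atm-1 libraries. For OsDi19-5 (Os01g0971100) the same measure was -1.91 (limma adjusted p = 0.0134), with values given in the report. Over all genes 41 of 24582 (0.167%) were called by this test.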

How the results depend on the processing

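No untreated gene was called in 14 of the 18 alternatives. With library weights 4 genes were called, all lower, and leaving out 1 library gave 0 to 2. Genes at an unadjusted p under 0.05 numbered 353 (52 higher, 301 lower) with the 6 libraries alone, 730 (230.0 higher, 500.0 lower) with a filter of 5 FPKM in 3 libraries, 3777 (1382 and 2395) with library weights, and 195 were higher with the 11 untreated libraries. Leaving out 1 library gave 431 to 4698 (93 to 1750 higher, 338 to 2948 lower). The lowest number came without ATM replicate 2 and the highest without atm-1 replicate 3; 2789 came without atm-1 replicate 2 and 683 without atm-1 replicate 1. Quantile normalization gave 704 higher and 621 lower with a median of 0.058.

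With the replicate block on the 6 libraries 484 genes (73 higher, 411 lower) were at an unadjusted p under 0.05 and 0 were called. Same-numbered libraries deviated together at r of -0.05, -0.04 and 0.13, and the main fit used no pairing. Deviations from means of 3 libraries cannot decide whether same-numbered libraries were paired. The deviations of atm-1 replicate 2 correlated best with those of ATM replicate 1 (r = 0.26).

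Over the fits that left out 1 library, medians were -0.08 to -0.01 for all genes, -0.24 to 0.06 for DNA damage, -0.77 to -0.22 for light harvesting, -0.73 to -0.32 for photosystems, -1.04 to -0.12 for the Calvin cycle, -0.87 to -0.16 for chlorophyll synthesis, -1.39 to -0.13 for the chloroplast ribosome, -0.27 to -0.05 for the cytosolic ribosome, -0.39 to -0.25 for phenylpropanoid genes and -1.11 to -0.18 for the authors' selected genes. Chlorophyll synthesis was at -0.15 without the 2 libraries poor in low-read genes and at -0.20 with library weights. Phenylpropanoid genes were at -0.16 with a pseudocount of 5, -0.060 with no filter and -0.20 after quantile normalization. The shares of leading genes with the same sign at 70 Gy were 51.6% (higher) and 31.2% (lower) without ATM 70 Gy replicate 3, an alternative chosen after seeing the data, and 59.3% and 43.3% for genes chosen without atm-1 replicate 1.

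Of 1639 values for 94 named genes 22 turned direction and 3 passed the threshold, by limma's adjusted p: Os08g0156600 (1.71, adjusted p = 0.0215) and GLP8-12 (3.47, adjusted p = 0.0176) without atm-1 replicate 2, and UGT (-5.37, adjusted p = 0.0133) without atm-1 replicate 3. With atm-1 control replicate 1 and ATM 70 Gy replicate 3 both left out, ATM was at 0.021, ATR at 0.60, OsKu70 at 0.049 and Os07g0108100 at -0.019. Over the fits that left out 1 library, ATM was at -0.86 to 0.021, ATR at -0.71 to 0.60, OsKu70 at -0.26 to 0.049, OsTOP6A3 at -0.13 to 0.11, OsERF#079 at -0.0091 to 1.95 and Os07g0108100 at -0.019 to 0.67. After quantile normalization ATR was at 0.0045, OsTOP6A3 at 0.19, OsKu70 at 0.10 and Os12g0121200 at 0.062. With library weights ATR was at 0.67, OsTOP6A3 at 0.081, OsDREB1G at -0.056, Os01g0613500 at 0.53 and psbB at 0.045. ATR was at 0.014 with a pseudocount of 5, OsTOP6A3 at 0.00090 with median-ratio scaling and Os06g0587900 at -1.08 with voom. The cause was not tested. Errors cover the spread between these libraries only.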

Other observations

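In the authors' deposited table, the column of untreated atm-1 means on the irradiation sheet did not match the library values gene by gene. Across its 106 genes Pearson's r of log2 values was 0.225 with the mean of the deposited untreated atm-1 libraries. Gene by gene, the ratio of this column to the untreated atm-1 column of the cold sheet of the authors' deposited table ran from 0.00608 to 577, and once each column was sorted by size it ran from 1.15 to 1.16. For the untreated ATM columns of the 2 sheets of the authors' deposited table the gene-by-gene ratio ran from 1.14 to 1.15. On the irradiation sheet of the authors' deposited table the untreated ATM column had r = 0.999 with the ATM library means gene by gene. On the cold sheet of the authors' deposited table the untreated atm-1 column had r = 0.997. Read as they stand, atm-1 was higher for 48 and lower for 58 genes on the irradiation sheet of the authors' deposited table and higher for 18 and lower for 88 on its cold sheet.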
